A study of Mus musculus with 12 samples.

Results

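The tumour suppressor p53, encoded by *Trp53* in the mouse, is a transcription factor that is kept scarce by the ubiquitin ligase Mdm2 and accumulates when DNA is damaged or growth is not properly controlled. It then binds pairs of 10-base elements and turns on genes that stop the cell cycle, trigger apoptosis, repair DNA or feed back on p53 itself. In neural progenitors and pluripotent cells this network limits self-renewal and removes damaged cells. The 31 genes described here are *Trp53* and 30 widely used p53 target genes, a list of names drawn up with earlier results of these data known. All 31 were found among the 45706 genes of the deposited table. All 31 passed the filter on low counts, set over all samples together, as 17003 genes did. They were sorted by function into 5 genes of cell cycle arrest, 12 of cell death, 5 of DNA repair, 4 of p53 and its feedback, and 5 of metabolism and other functions.

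The data comprise 12 RNA sequencing libraries in 4 groups of 3. The cells of every group descended from *Sox1*-GFP embryonic stem cells, which carry a heterozygous knock-in of GFP at *Sox1*, and are given as strain C57BL/6. NPC are neural progenitor cells that were labelled Baseline, negative for *Sox1* and not sorted. NPC(+), labelled Sox1posGP, were sorted for *Sox1*-GFP after dCas9-VP64, a catalytically dead Cas9 fused to a transcriptional activator, had been targeted to the *Sox1* promoter by guide RNAs. The libraries labelled NSC came from unsorted neuroepithelial cells, and those labelled NR from neuroepithelial cells sorted for GFP. The text of the study, unlike the labels, also has the uninduced NPCs sorted. Lines with dCas9-VP64 were clonal, each grown from a single cell. The study states in general that its biological replicates came from separate days and separate clonal lines. For the expression data it names 3 biological replicates without days or lines. The line behind each NPC or NPC(+) library, and whether the NPC libraries received guide RNAs, is not stated in the sources used here.

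Levels are given as CPM, counts scaled to a common library size with the TMM method of edgeR. Depth was lowest in NPC(+), with totals of 3407066 to 6315574 counts, and 4939268 to 18351483 in NPC. The libraries labelled NSC held 29046205 to 43095688 counts and those labelled NR 16707006 to 34594885. A count of 3 was worth 0.613 CPM on average in an NPC(+) library, 0.408 in NPC, 0.122 in NR and 0.0874 in NSC, which sets how well low genes were measured. The targeted gene *Sox1* lay between 4.83 and 6.00 CPM in NPC and between 20.3 and 21.7 CPM in NPC(+). It lay between 48.6 and 64.9 CPM in the libraries labelled NSC and between 4.62 and 20.001 CPM in those labelled NR. In the libraries labelled NR the 6 pluripotency markers examined summed to between 1345 and 2553 CPM, against 51.6 to 142.8 in NSC, 34.5 to 45.5 in NPC and 13.3 to 15.0 in NPC(+). The 6 neural progenitor markers, *Sox2*, *Nes*, *Pax6*, *Fabp7*, *Vim* and *Olig2*, summed to between 741 and 1260 CPM in NR, against 2518 to 2581 in NPC, 1812 to 1871 in NPC(+) and 2095 to 2263 in NSC. The libraries labelled NR thus had the highest pluripotency and the lowest progenitor markers of the 4 groups.

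The promoter windows of the members, 250 bases before to 50 after the RefSeq start in GRCm38.p6, were searched for the p53 decamer consensus placed as a pair of decamers without a spacer. The consensus reads the same on both strands. Only pairs with the core C and G of each decamer intact were counted, and the best match over all windows of a gene was kept. Of the 22 members with a window in RefSeq's table, 3 held a pair with at most 1 mismatch, as did 22 of all 27025 genes with a window (0.0814%). With up to 3 mismatches the number was 7 of 22 members, against 1.63% of all genes, and a single decamer without a mismatch was present in 10 of 22 members, against 9.55% of all genes. The mismatch limits were chosen after the matches were seen, and a match is a description of letters and not of binding. No window was given for *Pmaip1*, *Zmat3*, *Trp53inp1*, *Rrm2b*, *Tnfrsf10b*, *Perp*, *Ddb2*, *Xpc* and *Ptp4a3*. The 3 closest matches, and that of *Bbc3* with 3 mismatches, are shown because these genes moved in different directions in the comparisons that follow. Capitals mark the 4 core bases of each decamer.
Cdkn1a: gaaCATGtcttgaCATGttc
Ccng1: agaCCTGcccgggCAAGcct
Gtse1: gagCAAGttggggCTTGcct
Bbc3: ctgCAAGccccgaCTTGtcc
The *Cdkn1a* pair lies at chr17:29090928-29090947 on the plus strand and begins 51 bases before the transcription start. The *Ccng1* pair lies at chr11:40755462-40755481 on the minus strand and begins 195 bases before the start. The *Gtse1* pair lies at chr15:85859945-85859964 on the plus strand and begins 1 base before a RefSeq start, so most of it lies past that start. It lies inside the annotated gene, which begins at chr15:85859745. The *Bbc3* pair lies at chr7:16309486-16309505 on the plus strand and begins 97 bases before a RefSeq start. That start lies inside the annotated gene, which begins at chr7:16308393.

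Compared per length of exon sequence, as TPM (counts per exon length, scaled to a common total) averaged over the 3 libraries, the most abundant members changed with the group. In NPC they were *Bax*, which encodes a pore-forming protein of mitochondrial apoptosis, at 236 TPM, the polo-like kinase gene *Plk2* at 197 TPM and *Cdkn1a* at 195 TPM. *Cdkn1a* encodes p21, the inhibitor of cyclin-dependent kinases through which p53 arrests the cell cycle. In NPC(+) *Plk2* stood highest at 511 TPM, *Bax* followed at 232 TPM, and *Cdkn1a* was at 45.3 TPM, rank 8 of the 31. In NSC the highest level was that of *Ccng1*, the gene of cyclin G1, at 1024 TPM, and in NR *Bax* at 640 TPM and *Ccng1* at 569 TPM stood above the others. For *Trp53* itself the level was 272 TPM in NR, 161 in NSC, 81.0 in NPC(+) and 75.3 in NPC. The lowest members of NPC were *Epha2*, *Tnfrsf10b* and *Perp*, at 0.0254, 0.0435 and 0.308 TPM.

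**Figure D1:**
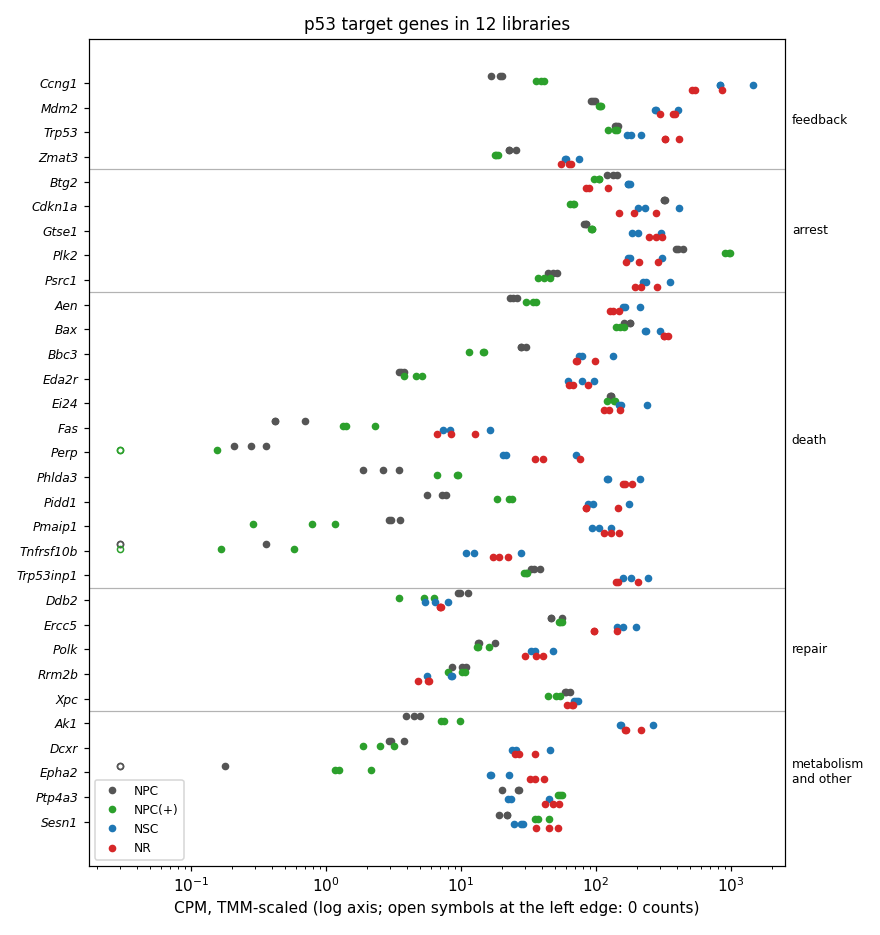
Level of the 31 p53 target genes in each of the 12 libraries (CPM on a log axis, 3 points per group, ordered by function); open symbols at the left edge stand for 0 counts. The death genes *Perp*, *Tnfrsf10b*, *Phlda3*, *Pmaip1*, *Fas* and *Eda2r* lie below 10 CPM in NPC and NPC(+), and NSC and NR lie to their right, whereas *Cdkn1a* and *Plk2* reach their highest levels outside NR.

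Comparison of NPC(+) with NPC asks what goes with induction of *Sox1*. By the labels NPC(+) cells were also sorted and NPC cells were not, and whether NPC received guide RNAs is not stated. Induction, sorting and guide delivery therefore cannot be told apart here. The p53 target genes did not move as a block. Of the 31 members, 10 were higher and 7 lower at an adjusted p under 0.1, and 14 were not called (quasi-likelihood test of edgeR, p adjusted by Benjamini-Hochberg over 17003 genes). Of all genes tested, 21.6% were higher and 22.7% lower by the same rule. Thinning every library to the smallest total left 4 members lower. The filter on low counts ran over all 4 groups. In a fit of NPC and NPC(+) alone 27 members passed it, and *Fas*, *Tnfrsf10b*, *Perp* and *Epha2* did not. The calls of *Fas* and *Epha2* as higher thus rest on a filter that these genes pass through NSC and NR. The median log2 fold change was -0.06 over the members and 0.00 over all genes. The values of the groups did not overlap for 22 of 31 members, against 52.7% of all genes. Past the 4-fold limit that the study states, *Epha2* was higher and *Cdkn1a* lower, against 3.87% of all genes higher and 1.92% lower. In bulk RNA, fewer cells that express a gene and less RNA per cell cannot be told apart.

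Among the 5 arrest genes, *Cdkn1a* fell and *Plk2* rose. *Cdkn1a* was at 327, 320 and 318 CPM in NPC and at 67.2, 69.2 and 64.0 CPM in NPC(+). The replicates lay close together in each group and far apart between them. The fall was 4.82-fold (log2 fold change -2.27, SE 0.26, adjusted p = 1.26e-05). *Plk2*, whose product acts in centriole duplication and the stress response, was at 444, 403 and 392 CPM in NPC and at 988, 972 and 897 CPM in NPC(+), 2.31-fold higher (log2 fold change 1.21, SE 0.21, adjusted p = 5.31e-04). Each NPC(+) library was above each NPC library for this gene. The antiproliferative gene *Btg2* was at 120, 135 and 143 CPM in NPC and at 105, 105 and 96.9 CPM in NPC(+), a log2 fold change of -0.37 (SE 0.13, adjusted p = 0.0322). Its call was lost without NPC replicate 3 or NPC(+) replicate 3 and after thinning to equal depth, with adjusted p up to 0.113. *Gtse1* and *Psrc1*, which encode microtubule-associated proteins, were not called, at log2 fold changes of 0.15 (SE 0.16) and -0.21 (SE 0.19).

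The 12 death genes split, with 4 higher, 2 lower and 6 not called. *Pmaip1* and *Bbc3* encode Noxa and Puma, the BH3-only proteins through which p53 starts mitochondrial apoptosis, and both were lower in NPC(+). *Pmaip1* was at 3.04, 2.93 and 3.55 CPM in NPC and at 0.290, 0.785 and 1.17 CPM in NPC(+), from 1, 5 and 7 counts in the latter (log2 fold change -1.92, SE 0.37, adjusted p = 9.64e-04). *Bbc3* was at 27.9, 28.0 and 30.3 CPM in NPC and at 14.8, 14.4 and 11.5 CPM in NPC(+) (log2 fold change -1.09, SE 0.24, adjusted p = 0.00288). For each of these genes every NPC(+) library was below every NPC library. *Bax*, which acts after them, was at 178, 160 and 180 CPM in NPC and at 151, 142 and 160 CPM in NPC(+). These values overlapped at 160 CPM, and the log2 fold change of -0.19 (SE 0.10) was not called with an adjusted p of 0.164.

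The death genes that rose in NPC(+) act elsewhere in the pathway. *Phlda3*, which encodes an inhibitor of Akt signalling, was at 2.63, 3.49 and 1.88 CPM in NPC and at 9.55, 6.59 and 9.34 CPM in NPC(+), a log2 fold change of 1.62 (SE 0.34, adjusted p = 0.00170). *Pidd1*, which encodes the scaffold of the caspase-2 complex, was at 7.70, 7.25 and 5.63 CPM in NPC and at 23.7, 22.6 and 18.3 CPM in NPC(+), a log2 fold change of 1.60 (SE 0.34, adjusted p = 0.00189). For both genes the lowest NPC(+) library was above the highest NPC library. *Fas*, the gene of a death receptor, was at 0.418, 0.698 and 0.417 CPM in NPC and at 2.32, 1.41 and 1.33 CPM in NPC(+), a log2 fold change of 1.69 (SE 0.61, adjusted p = 0.0432). It rested on 8, 9 and 8 counts in the NPC(+) libraries, and the call was lost without NPC replicate 1 or NPC(+) replicate 1 (adjusted p up to 0.169). The exonuclease gene *Aen* was higher by a log2 fold change of 0.44 (SE 0.13, adjusted p = 0.0159), with levels between 23.2 and 26.2 CPM in NPC and between 30.2 and 35.9 CPM in NPC(+).

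Of the death genes without a call, *Eda2r*, *Ei24* and *Trp53inp1* had log2 fold changes of 0.37 (SE 0.26), 0.03 (SE 0.16) and -0.24 (SE 0.18). *Eda2r* encodes a receptor of the tumour necrosis factor family, *Ei24* a membrane protein of the endoplasmic reticulum, and *Trp53inp1* a nuclear protein that binds p53. *Perp*, which encodes a membrane protein of p53-dependent apoptosis, had 6, 2 and 1 counts in NPC and 0, 1 and 0 in NPC(+). The ratio of NPC to NPC(+) was 4.96, with a 95% exact interval from 0.687 to 217. The death receptor gene *Tnfrsf10b* had 6, 0 and 0 counts in NPC and 2, 0 and 1 in NPC(+), a ratio of NPC(+) to NPC of 0.908 with a 95% interval from 0.147 to 4.25. A difference was not detectable for *Perp* and *Tnfrsf10b* at this depth, and these intervals cover counting error only.

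*Trp53* and *Mdm2*, the core of the feedback loop, were not called. *Trp53* was at 147, 138 and 140 CPM in NPC and at 144, 123 and 139 CPM in NPC(+), with a log2 fold change of -0.07 (SE 0.11, adjusted p = 0.697). *Mdm2* was at 91.7, 97.7 and 94.8 CPM in NPC and at 107, 110 and 106 CPM in NPC(+), and its groups did not overlap. Its log2 fold change of 0.18 (SE 0.14) had an adjusted p of 0.352 in the fit of all 12 libraries, whose estimate of spread takes in NSC and NR. In a fit of these 6 libraries alone *Mdm2* was called higher (adjusted p = 0.00822). There *Gtse1* was also called higher (adjusted p = 0.0227) and *Bax* lower (adjusted p = 0.0747). *Ccng1*, whose cyclin G1 acts with phosphatase 2A on Mdm2, was at 20.2, 19.5 and 16.7 CPM in NPC and at 35.9, 38.9 and 41.0 CPM in NPC(+), 2.03-fold higher (log2 fold change 1.02, SE 0.27, adjusted p = 0.00749). *Ccng1* and *Cdkn1a*, both with a close match to the paired consensus in the window shown above, thus moved in opposite directions in the same libraries. *Zmat3*, which encodes a zinc finger protein that binds RNA, was lower by a log2 fold change of -0.37 (SE 0.13, adjusted p = 0.0354), with levels between 22.6 and 25.7 CPM in NPC and between 18.01 and 18.8 CPM in NPC(+). Thinned to equal depth it was not called (adjusted p = 0.234).

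None of the 5 repair genes was called higher, and *Ddb2* and *Xpc* were lower. Their products recognize damage in nucleotide excision repair. *Ddb2* was at 9.85, 9.49 and 11.3 CPM in NPC and at 3.47, 5.34 and 6.34 CPM in NPC(+) (log2 fold change -0.97, SE 0.23, adjusted p = 0.00397). *Xpc* was at 59.6, 59.3 and 63.9 CPM in NPC and at 54.4, 50.6 and 44.4 CPM in NPC(+) (log2 fold change -0.29, SE 0.09, adjusted p = 0.0220). The NPC(+) libraries were below the NPC libraries for both genes, although *Xpc* lost its call without NPC(+) replicate 3, with no filter and after thinning (adjusted p up to 0.332). The excision nuclease gene *Ercc5*, the translesion polymerase gene *Polk* and *Rrm2b*, which encodes a subunit of ribonucleotide reductase, overlapped between the groups, with log2 fold changes of 0.12 (SE 0.16), -0.10 (SE 0.20) and -0.06 (SE 0.21).

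Of the 5 genes of metabolism and other functions, 4 were higher. *Epha2*, the gene of an ephrin receptor, had 3, 0 and 0 counts in NPC and 4, 8 and 13 in NPC(+), which came to 0.179, 0 and 0 CPM against 1.16, 1.26 and 2.17 CPM. The ratio of the pooled levels was 15.1 with a 95% exact interval from 4.62 to 78.3 that covers counting error only (adjusted p = 2.61e-04 in edgeR's test). *Ptp4a3*, which encodes a phosphatase, was at 26.3, 26.8 and 20.04 CPM in NPC and at 53.8, 52.3 and 56.0 CPM in NPC(+), a log2 fold change of 1.13 (SE 0.23, adjusted p = 0.00159). *Sesn1*, a gene of the sestrin family that restrains mTORC1, was at 22.0, 21.8 and 18.99 CPM in NPC and at 35.3, 45.1 and 37.4 CPM in NPC(+), a log2 fold change of 0.91 (SE 0.15, adjusted p = 3.06e-04). The NPC(+) libraries were above the NPC libraries for all 3 of these genes. *Ak1*, the gene of an adenylate kinase, was higher by a log2 fold change of 0.84 (SE 0.32, adjusted p = 0.0522), and this call was lost after thinning and without NPC replicate 1, NPC replicate 2 or NPC(+) replicate 1 (adjusted p up to 0.137). *Dcxr*, the gene of a xylulose reductase, overlapped between the groups at a log2 fold change of -0.39 (SE 0.38).

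**Figure D2:**
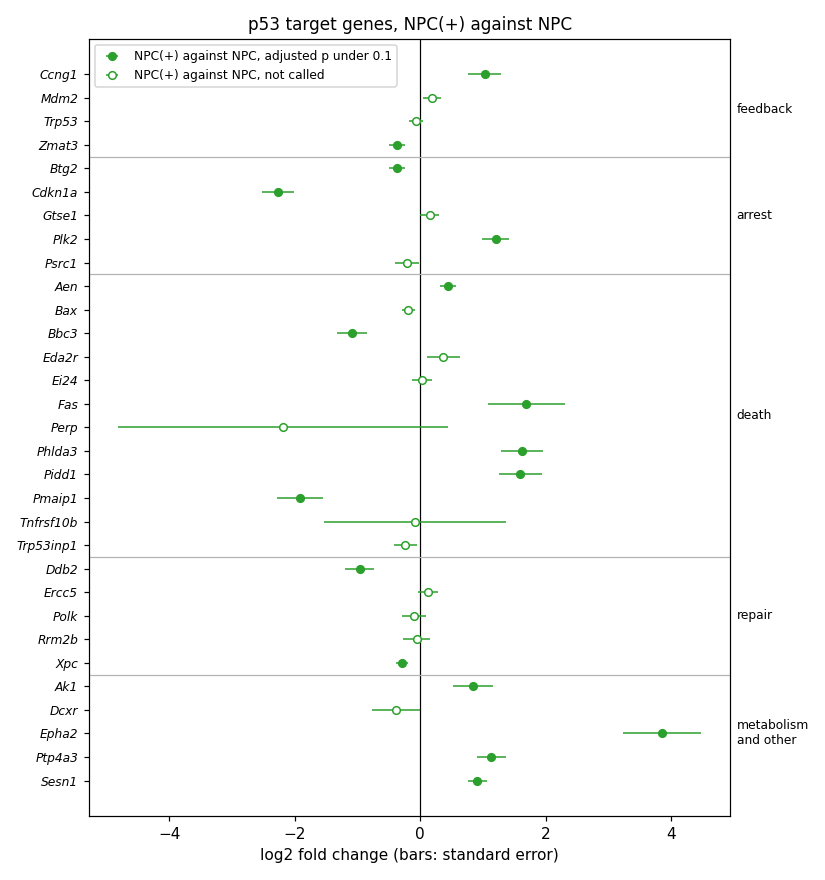
Log2 fold change of NPC(+) against NPC for each of the 31 genes by function (points, with bars for the standard error; filled where the adjusted p was under 0.1). *Cdkn1a* at -2.27 and *Epha2* at 3.85 stand furthest out among the called genes, and the wide bars of *Perp* and *Tnfrsf10b* come from genes with at most 6 counts in any library of these groups.

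Genes near a member on the chromosome could move with it. For NPC(+) against NPC, the median log2 fold change of expressed genes within 5 Mb of a member ran from -0.26 to 0.42 over the 31 members and was -0.05 around *Cdkn1a*, against a log2 fold change of -2.27 for *Cdkn1a* itself. The median was highest around *Ercc5* and *Psrc1*, at 0.42 and 0.39. In NSC and NR against NPC the medians lay further from 0 around some members. They were 0.88 and 0.90 around *Fas*, 0.93 and 0.86 around *Tnfrsf10b*, and -0.73 and -0.78 around *Gtse1*, which itself rose. Around *Rrm2b* the medians were -0.58 in NSC and -0.26 in NR, beside -0.41 and -0.87 for the gene. Around *Btg2* they were -0.43 and -0.37, beside 0.40 and -0.42 for the gene. Whole chromosomes were shifted too. Over the other expressed genes of the chromosome of *Gtse1*, chromosome 15, the medians were -0.66 in NSC and -0.69 in NR. *Rrm2b* and *Ptp4a3* lie on it as well. For chromosome 14, which holds *Tnfrsf10b*, they were 0.56 and 0.53. Over all expressed genes they were 0.02 and -0.01. The part of neighbouring genes or of the chromosome in the members' changes was not tested.

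In the libraries labelled NSC and NR most members stood well above NPC. Of the 31 members, 26 were higher and 3 lower in NSC, against 44.4% and 33.7% of all genes, and 24 were higher and 5 lower in NR, against 45.6% and 34.1% of all genes. In each of the 2 groups 14 members were called and more than 4-fold higher, where 19.5% of all genes were in NSC and 22.0% in NR. These counts include *Fas*, *Tnfrsf10b*, *Perp* and *Epha2*, which passed the filter on low counts only through NSC and NR, where they are high. Over all genes 17003 passed that filter, and 12045 in a fit of NPC and NPC(+) alone. The median log2 fold change over the members was 1.74 in NSC and 1.73 in NR, against 0.20 and 0.19 over all genes. Both comparisons use the same NPC libraries, and 23 members were higher and 3 lower in each. The markers of other cell types moved with these groups. The 6 neural crest and mesenchyme markers, in NSC and NR mostly *Col1a1* and *Col1a2*, summed to between 28.4 and 31.9 CPM in NPC, between 33.6 and 36.2 in NPC(+), between 555 and 1745 in NSC and between 620 and 4537 in NR, while *Sox10*, which marks neural crest, had at most 22 counts in any library. The sums of the pluripotency markers were higher as well, as given above. The 6 mesoderm and endoderm markers summed to between 21.5 and 29.3 CPM in NPC, between 37.5 and 55.8 in NSC and between 79.9 and 135 in NR. The 6 blood and endothelium markers summed to between 3.77 and 4.17 CPM in NPC, between 5.94 and 9.97 in NSC and between 73.8 and 130 in NR, with *Ptprc* at no more than 6 counts in any library. Of the 6 neuron markers 4 were called higher and 1 lower in each group, although their sum was between 468 and 495 CPM in NPC, between 437 and 582 in NSC and between 284 and 408 in NR. The 5 astrocyte markers summed to between 21.9 and 25.5 CPM in NPC and to at most 10.7 CPM in NSC and NR. The part of these markers in the members' levels was not tested.

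The rises were large among the death genes. All 12 were higher in NSC and 11 in NR, with median log2 fold changes of 4.24 and 4.05, and 9 of 12 were more than 4-fold higher in each. *Fas*, *Tnfrsf10b* and *Perp*, which passed the filter only through NSC and NR, are among these and enter the medians. *Pmaip1*, at 2.93 to 3.55 CPM in NPC, was at 105, 129 and 93.2 CPM in NSC and at 147, 130 and 115 CPM in NR (log2 fold changes 5.13 and 5.39, SE 0.18 and 0.19). *Phlda3* was at 123, 212 and 122 CPM in NSC and at 163, 185 and 159 CPM in NR, 55.9 and 61.9 times its level in NPC. *Pidd1* was at 87.1, 175 and 95.2 CPM in NSC and at 85.0, 145 and 84.4 CPM in NR (log2 fold changes 4.07 and 3.89, SE 0.31 in each). These genes did not overlap with NPC or NPC(+) in any library. *Perp*, near the limit of detection in NPC, was at 21.6, 71.1 and 20.3 CPM in NSC and at 40.6, 75.7 and 35.4 CPM in NR. *Tnfrsf10b* was at 12.4, 28.0 and 10.9 CPM in NSC and at 17.3, 22.4 and 19.1 CPM in NR, and *Fas* ran from 6.66 to 16.4 CPM over these 6 libraries.

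Among the other death genes, *Eda2r* (log2 fold changes 4.46 in NSC and 4.34 in NR), *Aen* (2.86 and 2.48) and *Trp53inp1* (2.45 and 2.20) were more than 4-fold higher in both groups. *Bbc3* was at 78.5, 134 and 74.5 CPM in NSC and at 72.1, 99.2 and 71.2 CPM in NR, so that it and *Pmaip1*, which were lower in NPC(+), were higher here (log2 fold changes of *Bbc3* 1.74 and 1.497, SE 0.21 in each). *Bax* was higher by log2 fold changes of 0.56 and 0.91. *Ei24* was higher in NSC by 0.48 (SE 0.16, adjusted p = 0.0138), and in NR it was at 0.02 (adjusted p = 0.924).

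All 4 feedback genes were higher in both groups. *Ccng1* was at 829, 1464 and 828 CPM in NSC and at 511, 864 and 543 CPM in NR, 54.6-fold and 33.5-fold above NPC (log2 fold changes 5.77 and 5.07, SE 0.28 and 0.27). *Mdm2* was at 275, 405 and 281 CPM in NSC and at 373, 385 and 298 CPM in NR, 3.38-fold and 3.72-fold above NPC (adjusted p = 7.34e-08 and 3.40e-08). The lowest of these 6 *Mdm2* values was above the highest of the 6 NPC and NPC(+) values. *Zmat3* was higher by log2 fold changes of 1.45 and 1.37. *Trp53* was at 181, 215 and 169 CPM in NSC and at 413, 326 and 327 CPM in NR, log2 fold changes of 0.41 (SE 0.11, adjusted p = 0.00466) and 1.33 (SE 0.11, adjusted p = 1.32e-07).

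The 5 arrest genes split, with 3 higher and 1 lower in NSC, and 2 higher and 3 lower in NR. *Cdkn1a* was at 230, 415 and 205 CPM in NSC and at 149, 276 and 190 CPM in NR, so that NSC overlapped with NPC and NR lay below it. The log2 fold change was -0.18 (SE 0.24, adjusted p = 0.493) in NSC and -0.65 (SE 0.24, adjusted p = 0.0231) in NR, and without NSC replicate 2 it was called lower in NSC too (adjusted p = 0.0120). *Plk2* was at 178, 310 and 172 CPM in NSC and at 209, 288 and 167 CPM in NR, below each NPC library (log2 fold changes -0.91 and -0.90, SE 0.21 in each), while NPC(+) was above NPC. *Btg2* was higher in NSC by 0.40 (SE 0.12, adjusted p = 0.00923) and lower in NR, at a log2 fold change of -0.42 (SE 0.12, adjusted p = 0.00725). The mitotic genes *Gtse1* and *Psrc1* were higher in both groups, by log2 fold changes of 1.47 and 2.50 in NSC and of 1.73 and 2.27 in NR.

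The repair genes moved both ways. *Ercc5* rose by a log2 fold change of 1.72 in NSC and 1.17 in NR, and *Polk* by 1.36 and 1.23. *Ddb2*, at 9.49 to 11.3 CPM in NPC, was at 6.47, 5.46 and 8.08 CPM in NSC and at 6.96, 7.10 and 7.02 CPM in NR (log2 fold changes -0.61 and -0.53, SE 0.20 in each, adjusted p = 0.0147 and 0.0284), calls that were lost after thinning to equal depth (adjusted p up to 0.605 and 0.136). *Rrm2b* was lower in NR at a log2 fold change of -0.87 (SE 0.20, adjusted p = 0.00136). Its log2 fold change of -0.41 in NSC (SE 0.20, adjusted p = 0.0785) lost the call under 8 alternatives, among them the omission of NSC replicate 2, NPC replicate 1 or NPC replicate 3 (adjusted p up to 0.314). *Xpc* was higher in NSC by 0.22 (SE 0.09, adjusted p = 0.0326), a call lost without NPC replicate 1 or NPC replicate 2 (adjusted p up to 0.106), and was at 0.10 in NR (adjusted p = 0.326).

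Of the metabolic and other genes, *Epha2* was at 16.5, 22.8 and 16.7 CPM in NSC and at 41.0, 32.7 and 35.3 CPM in NR. Against the 3 counts of NPC the ratio was 175 in NSC (95% exact interval 59.7 to 848) and 339 in NR (116 to 1645), again with counting error only. *Ak1* was at 152, 263 and 153 CPM in NSC and at 166, 217 and 165 CPM in NR (log2 fold changes 5.41 and 5.37, SE 0.25 in each). *Dcxr* was higher by log2 fold changes of 3.32 and 3.20, and *Sesn1* by 0.37 (adjusted p = 0.0335, not called after thinning with adjusted p = 0.305) and 1.08. *Ptp4a3*, higher in NPC(+), was at 0.30 in NSC (SE 0.22, adjusted p = 0.244) and at 0.96 in NR (SE 0.23, adjusted p = 0.00152). In NSC it was called higher with no filter and without NSC replicate 1 or NSC replicate 3 (adjusted p down to 0.0236).

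**Figure D3:**
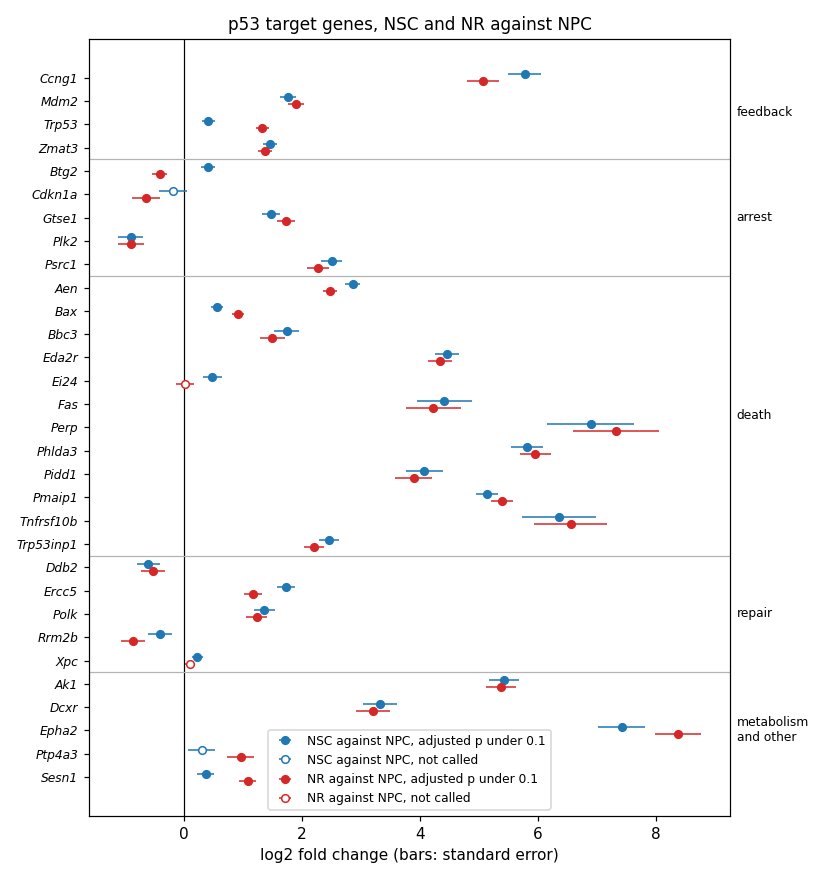
Log2 fold change of the libraries labelled NSC and NR against NPC for each of the 31 genes by function (points, with bars for the standard error; filled where the adjusted p was under 0.1). The 12 death genes lie at or to the right of 0 in both groups, whereas *Cdkn1a*, *Plk2*, *Ddb2* and *Rrm2b* lie to its left, *Cdkn1a* without a call in NSC.

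**Figure D4:**
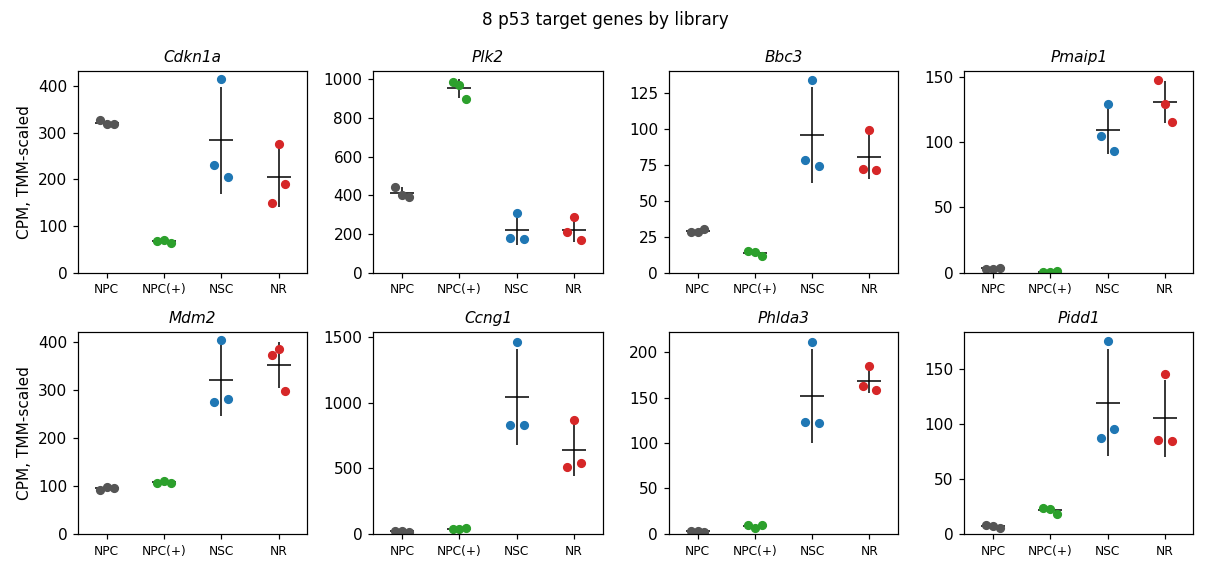
Level of 8 members in each library (CPM; points are libraries, bars the mean and SD of 3). *Cdkn1a*, *Bbc3* and *Pmaip1* are lower in NPC(+) than in NPC and *Plk2*, *Ccng1*, *Phlda3* and *Pidd1* higher, and the middle point of NSC, replicate 2, is the highest of its group in all 8 panels.

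Between the libraries labelled NR and NSC the members differed less. Of the 31 members, 5 were higher and 6 lower in NR, against 30.0% and 26.6% of all genes, and 20 were not called. *Trp53*, with the values given above, was higher in every NR library than in any NSC library (log2 fold change 0.92, SE 0.11, adjusted p = 2.69e-05). *Epha2* (log2 fold change 0.96), *Sesn1* (0.71), *Ptp4a3* (0.66) and *Bax* (0.35) were also higher in NR. *Btg2* was lower in NR, at 85.0, 124 and 88.4 CPM against 173, 179 and 171 CPM in NSC (log2 fold change -0.82, SE 0.12, adjusted p = 1.19e-04). *Ccng1* (-0.70), *Ercc5* (-0.56), *Rrm2b* (-0.46), *Ei24* (-0.46) and *Aen* (-0.38) were lower as well. Deviations of same-numbered NSC and NR libraries were positively correlated in each of the 3 pairs. So were NR 3 with NSC 1 (0.301) and NR 1 with NSC 3 (0.186). The counts above come from a fit without pairing, and a fit with the replicate number as a block called 8 members higher and 7 lower. The block added *Perp* (log2 fold change 0.59, adjusted p = 0.00627), *Pmaip1* (0.27, adjusted p = 0.0758) and *Gtse1* (0.28, adjusted p = 0.0856) to those higher, and *Cdkn1a* (-0.45, adjusted p = 0.0355) to those lower. *Ptp4a3* lost its call without NSC replicate 1 or NSC replicate 3 (adjusted p up to 0.110), and *Rrm2b* after thinning and without NSC replicate 1, NSC replicate 3 or NR replicate 1 (adjusted p up to 0.181). Without NSC replicate 2, 11 members were higher and 6 lower, and without NR replicate 2, 5 were higher and 11 lower.

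Replicate 2 stood apart from the other 2 replicates in both NSC and NR. Among the NSC libraries replicate 2 was the highest for 28 of 31 members, and for 42.0% of all genes. Among the NR libraries it was the highest for 23 of 31 members, and for 34.0% of all genes. It was the highest in both groups for 22 members (71.0%), against 17.1% of all genes. The median member was above the mean of the other 2 replicates by a log2 difference of 0.54 in NSC replicate 2 and 0.30 in NR replicate 2, where the median over all genes was at -0.0041 and -0.02.

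The members differed in how far replicate 2 stood out. *Perp* was 3.34-fold and *Pidd1* 1.91-fold above the other NSC replicates, and 1.98-fold and 1.71-fold above the other NR replicates. *Cdkn1a* was at 1.91 and 1.64 times the other replicates in NSC and NR, and *Ccng1* at 1.77 and 1.64 times. *Sesn1* was lower in replicate 2 of both groups, at 0.869 and 0.750 times the others. *Trp53* was at 1.23 times the other NSC replicates and 0.888 times the other NR replicates. The neural crest and mesenchyme markers summed to 555 CPM in NSC replicate 2 against 1745 CPM in each other NSC library, and to 620 CPM in NR replicate 2 against 4537 and 3168 CPM in NR replicates 1 and 3. The pluripotency markers were also lowest in replicate 2, at 51.6 CPM in NSC and 1345 CPM in NR. So were the blood and endothelium markers, at 5.94 and 73.8 CPM. The mesoderm and endoderm markers were highest in replicate 2, at 55.8 CPM in NSC and 135 CPM in NR, as most members were. The neural progenitor markers were lowest in NSC replicate 2, at 2095 CPM, and highest in NR replicate 2, at 1260 CPM. The neuron and astrocyte markers were lowest in NSC replicate 2 and intermediate in NR replicate 2. The part of these markers was not tested. Without replicate 2 of the group, 26 members were again higher than NPC in NSC and 24 in NR.

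**Figure D5:**
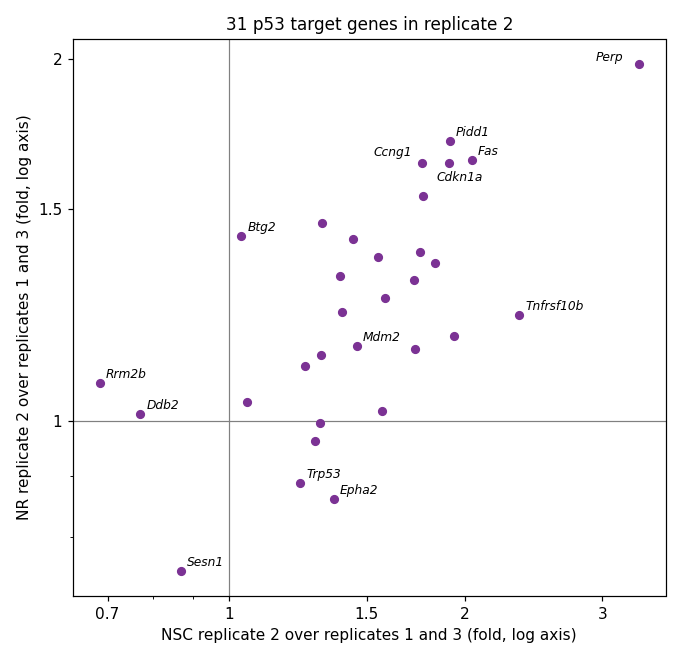
Level of each of the 31 genes in replicate 2 relative to the mean of replicates 1 and 3, in the libraries labelled NSC (horizontal) and NR (vertical), both as fold on log axes. Most points lie above 1 on both axes, with *Perp* furthest at 3.34 and 1.98, and *Sesn1* lies below 1 on both.

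Of the 21 regulators of p53 examined beside the members, 4 were higher and 5 lower in NPC(+), 11 higher and 4 lower in NSC, and 12 higher and 4 lower in NR. Over all genes the shares higher and lower were 21.6% and 22.7% in NPC(+), 44.4% and 33.7% in NSC, and 45.6% and 34.1% in NR, so the regulators lay near the background in NPC(+). *Mdm4*, whose product restrains p53 together with Mdm2, was at 124, 127 and 127 CPM in NPC and at 92.6, 87.3 and 90.9 CPM in NPC(+) (log2 fold change -0.48, adjusted p = 0.00798), and it was lower in NSC and NR as well (-0.94 and -1.18). *Cdkn2a*, whose Arf product blocks Mdm2 and whose other product is the kinase inhibitor p16, was at 30.9 to 39.7 CPM in NPC and 35.3 to 44.2 CPM in NPC(+). It was at 1.97 to 3.52 CPM in NSC and 3.74 to 5.11 CPM in NR, log2 fold changes of -3.81 and -3.00 against NPC. The phosphatase gene *Ppm1d*, itself a p53 target, was at 0.03 in NPC(+) (adjusted p = 0.887) and 0.69 in NSC on the log2 fold scale. The ubiquitin ligase gene *Cop1* (-0.66), the acetyltransferase gene *Crebbp* (-0.34) and the checkpoint kinase gene *Atr* (-0.45) were lower in NPC(+), and *Ppp1r13b*, whose product ASPP1 stimulates p53, was higher (1.49).

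Of 19 further p53 targets tested, 3 were higher and 8 lower in NPC(+), 9 higher and 7 lower in NSC, and 9 higher and 4 lower in NR. Against the same shares of all genes, the counts in NSC were near the background. *Sesn2* was at 239, 260 and 261 CPM in NPC and at 59.3, 46.8 and 43.5 CPM in NPC(+) (log2 fold change -2.36, SE 0.20, adjusted p = 7.61e-07), opposite in direction to its paralogue *Sesn1*. In NSC and NR it was at 0.01 and -0.17 and not called. *Ddit4* (-1.54), *Gadd45a* (-0.97) and *Tigar* (-0.73) were also lower in NPC(+), while the apoptosome gene *Apaf1* was higher (1.19). *Sesn2* and *Ddit4* are also targets of the transcription factor ATF4 in the integrated stress response.

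The 16 cell cycle genes that p53 is known to lower through p21 and the DREAM repressor complex were a further list. Of these, 9 were higher and 3 lower in NPC(+), with a median log2 fold change of 0.24. In NSC 14 were higher and none lower, and in NR 13 were higher and 1 lower. Of all genes 21.6% were higher and 22.7% lower in NPC(+), 44.4% and 33.7% in NSC, and 45.6% and 34.1% in NR. *Cdc20* (0.81), *Cdk1* (0.73), *E2f1* (0.66) and *Ccna2* (0.64) were higher in NPC(+). *Ccnb2*, the gene of cyclin B2, went the other way, at 27.1, 22.5 and 22.7 CPM in NPC and at 3.18, 2.98 and 2.34 CPM in NPC(+) (log2 fold change -3.13, SE 0.16, adjusted p = 8.96e-09), although it was higher in NSC and NR (2.49 and 2.98).

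The annotated span of several members, introns included, overlaps that of another annotated gene. *Cdkn1a*, *Ei24*, *Polk* and *Ddb2* each overlap a gene on the opposite strand, *Acp2* in the case of *Ddb2*, and *Rrm2b* overlaps genes on both strands. *Bax*, *Sesn1*, *Fas* and *Ptp4a3* overlap an annotated gene on their own strand. Whether their exons overlap was not examined. The strand setting of the counting is not stated, so reads from any shared exon sequence could not be told apart here.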

How the data were processed

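Gene expression was measured by RNA sequencing in 12 libraries. Total RNA came from the PicoPure kit, and its cDNA was amplified by SMART-Seq v4, a template-switching method for little RNA. The authors deposited raw counts of reads per Ensembl gene, without normalization. The submitters' processing notes name STAR 2.6, RSEM 1.1.14 and mm10, without saying what each did. Values are whole numbers, and whether they are rounded estimates, the strand setting and the annotation are not given in the sources used here. Samples were assigned to groups by their titles. Symbols, positions and exon lengths were taken from GENCODE vM21 (GRCm38), and promoter windows from RefSeq (GRCm38.p6). No genome sequence was used, so p53 elements inside genes or further away were not searched.

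Counts were fitted with edgeR 4.0.16 (limma 3.58.1, R 4.3.3), with TMM scaling, filterByExpr over the 4 groups, and glmQLFit and glmQLFTest over all 12 libraries with a prior count of 0.125. P values were adjusted by Benjamini-Hochberg over 17003 genes and a gene was called at an adjusted p under 0.1. Intervals for genes of few counts are exact conditional ones. Intervals used scipy 1.17.1, and tables and plots used pandas 2.3.3 and matplotlib 3.10.9 in Python 3.11.15. The test was tried on simulated data before use. No pair of replicates agreed within sampling noise, with chi-square values per degree of freedom from 1.54 to 49.0. No label says from which culture a library came, so p values cover the spread between these samples.

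All 31 members are named. Of the pathway lists, the genes called in NPC(+) were named, up to 5 a list by smallest adjusted p, with *Mdm4*, *Ppm1d* and *Cdkn2a* in any case. The members and lists were chosen with earlier results of these data known. *Tnfrsf10a* was not found in the table. The alternatives were DESeq2 1.42.0, RLE and upper-quartile scaling, other filters, an adjusted p under 0.05, the study's 4-fold limit, fits of the 2 groups compared, thinning to 3407066 counts, omission of each replicate and the replicate number as a block. Deviations of same-numbered NSC and NR libraries from their group means correlated at 0.229 to 0.490, above 0.1 in each of the 3 pairs. Pairs of unlike number ran from -0.410 to 0.301. NR 3 correlated at 0.301 with NSC 1 and at 0.296 with NSC 3, and NR 1 at 0.186 with NSC 3. The correlations thus set replicate 2 apart and do not show that the other numbers pair the libraries. The main fit used no pairing, and the replicate number as a block was an alternative. Correlations in the other comparisons lay between -0.05 and 0.05.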

Additional observations from a re-analysis of the deposited data

How the results depend on the processing

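No call of a member reversed under any alternative. With the threshold kept at an adjusted p under 0.1, 8 of 10 higher and 4 of 7 lower calls in NPC(+) held in every alternative that fitted the gene. By that rule 24 of 26 and 1 of 3 held in NSC, 24 of 24 and 4 of 5 in NR, and 4 of 5 and 5 of 6 in NR against NSC. With at least 10 counts required in every library 25 members were fitted, and 27 in the fit of NPC and NPC(+) alone. *Epha2*, *Fas*, *Perp*, *Tnfrsf10b*, *Phlda3* and *Pmaip1* were thus not fitted in every alternative. Under the 4-fold limit, 1 member was higher and 1 lower in NPC(+), 14 higher and 0 lower in NSC, 14 higher and 0 lower in NR, and 0 higher and 0 lower in NR against NSC. Thinning every library to the smallest total left 4 members lower in NPC(+). With no filter on low counts 10 members were lower in NR than in NSC, and the cause was not tested. The replicate number as a block treats same-numbered libraries as pairs, which no label states. With it 8 members were higher and 7 lower in NR than in NSC, and the block changed no other call. Leaving out each replicate in turn gave 4 to 11 members higher and 5 to 11 lower in NR than in NSC. The shallow NPC(+) libraries limit *Perp*, *Tnfrsf10b*, *Epha2*, *Fas* and *Pmaip1*, each with at most 13 counts in any of them.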
